A study of Mus musculus with 6 samples.

Results

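Argonaute (Ago) footprints on genes of vesicle traffic were examined in bone-marrow-derived macrophages of wild-type (WT) and APOBEC1-deficient (KO) mice. The genes were chosen by name. A footprint of the table belonged to the set when it overlapped, on the gene's own strand, a gene whose symbol starts with Rab, Snx, Vps, Vamp, Stx or Arf followed by a digit, with Rab1 left out. This gave 139 of the 6270 footprints, on 50 of the 2222 genes that carried any, out of 156 annotated symbols of these names (pseudogenes included). Of the 139, 137 lay in an annotated 3′ UTR (98.6%, beside 96.7% of all footprints), and the other 2 lay in the coding sequence of Vps39.

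HITS-CLIP recovers the RNA fragments that UV light has bound to a protein. Here the protein was Ago, captured with the antibody 2A8. The 3 WT and 3 KO libraries were made from littermates of the C57BL/6 strain, aged 6 to 12 weeks. Marrow cells were matured with M-CSF for 7 days. The KO mice carry the genotype Apobec1-/-, and what was deleted from the gene is not described in the labels. APOBEC1 is the enzyme that deaminates C to U in mRNA. Ago occupancy, a number without a unit, is what the authors obtained by scaling each footprint to how much its transcript was expressed in RNA-Seq, and they gave 1 value per genotype. A difference between KO and WT therefore has no replicate check, no error and no test, here or for any value that follows. The table also counts how many of the 3 libraries of each genotype held a footprint, and none of the 6270 had fewer than 2 libraries in both genotypes. A footprint held by fewer than 2 libraries of a genotype therefore entered through the other genotype alone. The direction of its ratio is tied to that entry and is no separate result. No read counts were used here, so depth is unknown. In such bulk cultures fewer cells of a type and less RNA per cell cannot be told apart.

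Rab and Arf proteins are small GTPases that act as switches on membranes. In the GTP-bound form each marks a compartment and recruits the motors and tethers that move or dock vesicles there. Sorting nexins (Snx) bind phosphoinositides of endosomes and sort cargo, partly with retromer, whose core holds Vps26 and Vps35. HOPS, CORVET and ESCRT complexes, which also hold Vps proteins, tether endosomes and lysosomes or form multivesicular bodies. Syntaxins (Stx) and Vamp proteins are SNAREs, which zip together to fuse membranes. Macrophages use all of these for phagocytosis, for recycling receptors and for secreting cytokines. Ago, loaded with a miRNA, binds 3′ UTRs through the seed, bases 2 to 8 of the miRNA.

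Of 15 symbols listed as macrophage markers, 10 carried footprints. Among them were Cx3cr1 (3.50 in KO and 3.11 in WT), Maf (6.66 and 4.07) and Emr1, the surface receptor used to identify macrophages (0.0380 and 0.0694). Adgre1, also listed, is another symbol of Emr1, and Cd68, Mertk, Mrc1 and Spi1 carried none. Markers of T cells, B cells, neutrophils and stromal fibroblasts carried 0 footprints, and of 5 for dendritic cells and osteoclasts 1 did. Absence of a footprint is not absence of the RNA. The targeted gene, Apobec1, had a summed occupancy of 0.312 in KO and 0.372 in WT over 3 footprints of its 3′ UTR, which does not check the genotype. Over all footprints, 290 (4.63%) were listed at 0 in KO, and 1462 (23.3%) had a KO value above 0 although no KO library held them. The labels do not describe how those values arose.

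The sequences under the footprints were searched on the footprint's strand for the 7-nt match to the seed of 26 miRNA families named for macrophages. Of the 139 footprints, 31 (22.3%, Wilson 95% interval 16.2% to 29.9%, over footprints and not over samples) held at least 1 match, beside 20.3% of all 6270. Their 45 matches lay on 21 genes and came from 19 families, and 17 of them were followed by an A, which extends the match. Printed are the families matched in 4 footprints each, and miR-19b-3p, matched in 3. Matches to miR-23a-3p lay on Arf, Snx and Stx genes, and those to miR-19b-3p on Rab, Snx and Stx genes. Those to the other printed families lay on genes named Rab or Snx. The mature sequences are those of RefSeq (GRCm38.p6 table), 5′ to 3′, with the seed in capitals.
miR-17-5p: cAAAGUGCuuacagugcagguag
miR-142a-3p: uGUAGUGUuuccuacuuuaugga
miR-142a-5p: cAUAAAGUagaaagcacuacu
miR-30a-5p: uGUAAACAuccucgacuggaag
miR-23a-3p: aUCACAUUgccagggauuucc
miR-19b-3p: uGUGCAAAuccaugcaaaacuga

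Matches to miR-17-5p, miR-142a-3p, miR-142a-5p, miR-30a-5p and miR-23a-3p each lay in 4 of the 139 footprints (2.88%). The same matches lay in 0.957%, 0.781%, 0.973%, 1.12% and 1.52% of all footprints. Matches to miR-19b-3p, miR-27a-3p and miR-128-3p each lay in 3 (2.16%, beside 1.00%, 1.59% and 1.48% of all). The remaining letters searched for the printed families were TTTGCAC (miR-19b-3p), ACACTAC (miR-142a-3p), TGTTTAC (miR-30a-5p) and AATGTGA (miR-23a-3p). No footprint of the set matched miR-21a, miR-22, miR-26a, miR-101a, miR-125b, miR-155 or miR-181a. With counts of 4 or fewer these shares are descriptions. The matches to miR-17-5p (GCACTTT) and miR-142a-5p (ACTTTAT) share 5 letters and can overlap, as they do in Rab8b and Snx8, and so can those to miR-27a-3p (ACTGTGA) and miR-128-3p (CACTGTG). Some of the sites named below are printed from mm9, 5′ to 3′ on the gene's strand, with the seed match in capitals. They are a choice from the 45 matches, and whether a site bears on occupancy was not tested. All lie in 3′ UTRs.
Rab8b, miR-19b-3p, chr9:66695235-66695259, minus strand: ctgtctttcTTTGCACatgcgtgtc
Rab8b, miR-17-5p, chr9:66692916-66692940, minus strand: tcagtggctGCACTTTattattgtg
Rab8b, miR-92a-3p, chr9:66692408-66692432, minus strand: aatttagttGTGCAATataataggt
Snx18, miR-19b-3p, chr13:114384196-114384220, minus strand: ggccatcacTTTGCACaggaagcat
Snx18, miR-30a-5p, chr13:114384383-114384407, minus strand: cctattctcTGTTTACaaactccaa
Stx12, miR-19b-3p, chr4:132410011-132410032, minus strand: ctctgcgctTTTGCACcatccc
Rab10, miR-17-5p, chr12:3247726-3247750, minus strand: gttaaatctGCACTTTctgaatatc
Snx8, miR-17-5p, chr5:140816299-140816323, minus strand: atgaatgaaGCACTTTatggactgc
Rab12, miR-142a-3p, chr17:66844704-66844728, minus strand: ttgttaattACACTACaaggcagac
Rab2a, miR-142a-3p, chr4:8533925-8533949, plus strand: ttgtattaaACACTACaaagtcatg
Rab40c, miR-142a-3p, chr17:26019126-26019150, minus strand: acaccatcaACACTACacttgctgc
Snx12, miR-27a-3p, chrX:98407294-98407318, minus strand: tattaaaccACTGTGAagcaagcct
Snx30, let-7a-5p, chr4:59913503-59913527, plus strand: catctcattCTACCTCtaaaccact

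Across the set, 67 footprints were higher in KO (48.2%, beside 48.7% of all footprints) and 72 were lower. Median occupancy over the 139 footprints came to 0.360 for KO, with quartiles of 0.152 and 0.762, and to 0.353 for WT, with quartiles of 0.228 and 0.731. The median log2 ratio of KO over WT was -0.11 (95% order-statistic interval over footprints -0.41 to 0.27), beside -0.04 for all 6270. A ratio of at least 2-fold was reached by 24 footprints higher in KO (17.3%, beside 18.9% of all footprints) and by 36 lower in KO (25.9%, beside 24.2%). Among the 133 above 0 in both genotypes, 24 were at least 2-fold higher (18%, beside 19.8%) and 30 at least 2-fold lower (22.6%, beside 20.5%). These shares are near the background and are no result about the set. Summed by gene, 23 genes were higher (46%, beside 47.8% of all genes) and 27 lower, with 5 at least 2-fold higher (10.0%, beside 11.7% of all genes) and 7 at least 2-fold lower (14.0%, beside 17.9%).

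**Figure D1:**
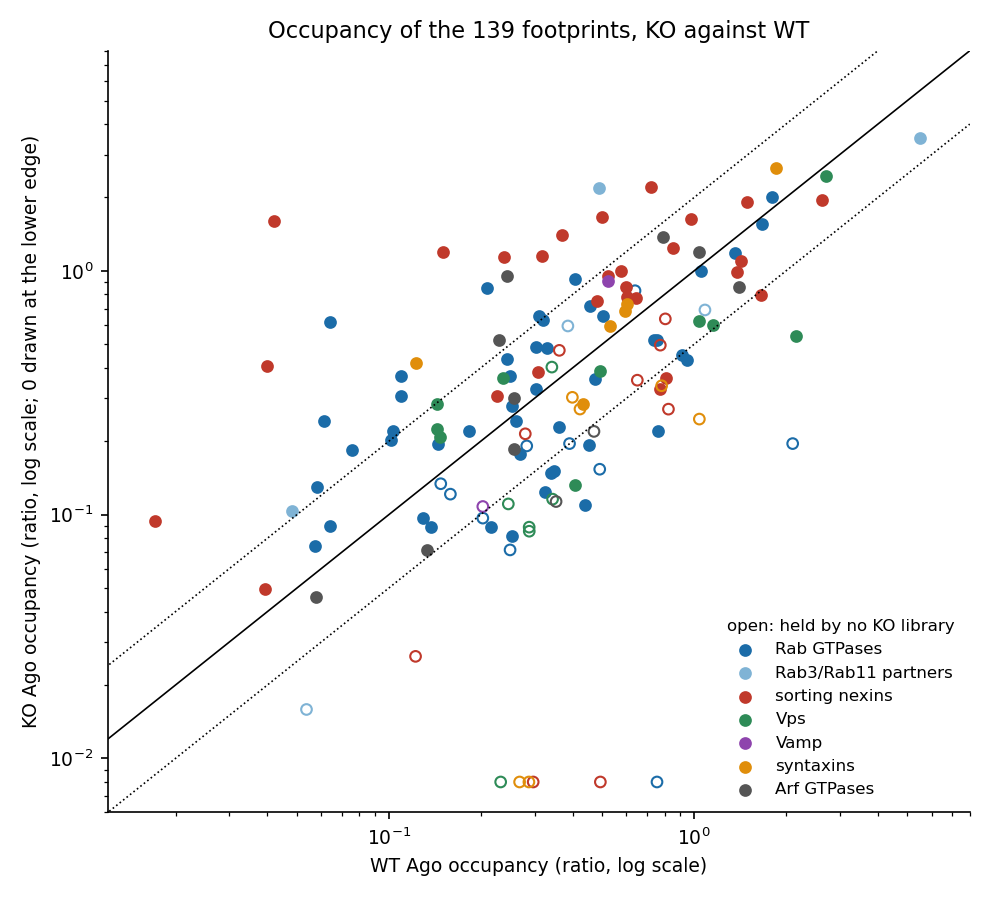
Ago occupancy of each of the 139 footprints, KO (vertical, log scale, values of 0 drawn at the lower edge) against WT (horizontal, log scale), coloured by gene family. The solid line marks equal values and the dotted lines 2-fold. Open circles are the 37 footprints that no KO library held, and 33 of these lie below the line of equality.

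Rab8b, a GTPase of transport from the Golgi and recycling endosomes to the plasma membrane, had 16 footprints, the most in the set. Of all 2222 genes, 11 had 16 or more. Its footprints covered 29.1% of a 3′ UTR of 4050 nt (chromosome 9, minus strand) with a median spacing of 239 nt. The KO sum over these footprints was 8.21 and the WT sum 7.99 (log2 ratio 0.04). Of the 16 footprints, 8 were higher and 8 lower in KO, and 2 in each direction reached 2-fold. Its 2 strongest footprints were the same in both genotypes.

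The strongest Rab8b footprint (chr9:66695235-66695297), 262 nt into the 3′ UTR, had 2.01 in KO and 1.79 in WT and was held by all 6 libraries. It contains the miR-19b-3p match printed above, 19 nt past its middle. The next, 1903 nt in, had 1.55 in KO and 1.67 in WT, again in all 6 libraries, and held no match to the 26 families. Another footprint found in all 6, 1680 nt in, had 0.482 and 0.329. The other 13 lay between 0.0821 and 0.651 in KO and between 0.103 and 0.740 in WT. At least 2-fold lower in KO were the footprint whose middle lies at the stop codon (0.0821 in KO, 0.254 in WT) and another 3353 nt in (0.151 and 0.348). At least 2-fold higher were those at 1391 nt (0.650 and 0.311) and 1573 nt (0.221 and 0.103). These 4 were held by at most 2 KO libraries. The site for miR-17-5p lay in a weak footprint (0.134 in KO and 0.148 in WT) that no KO library held. The site for miR-92a-3p lay in a footprint with 0.434 in KO and 0.243 in WT.

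**Figure D2:**
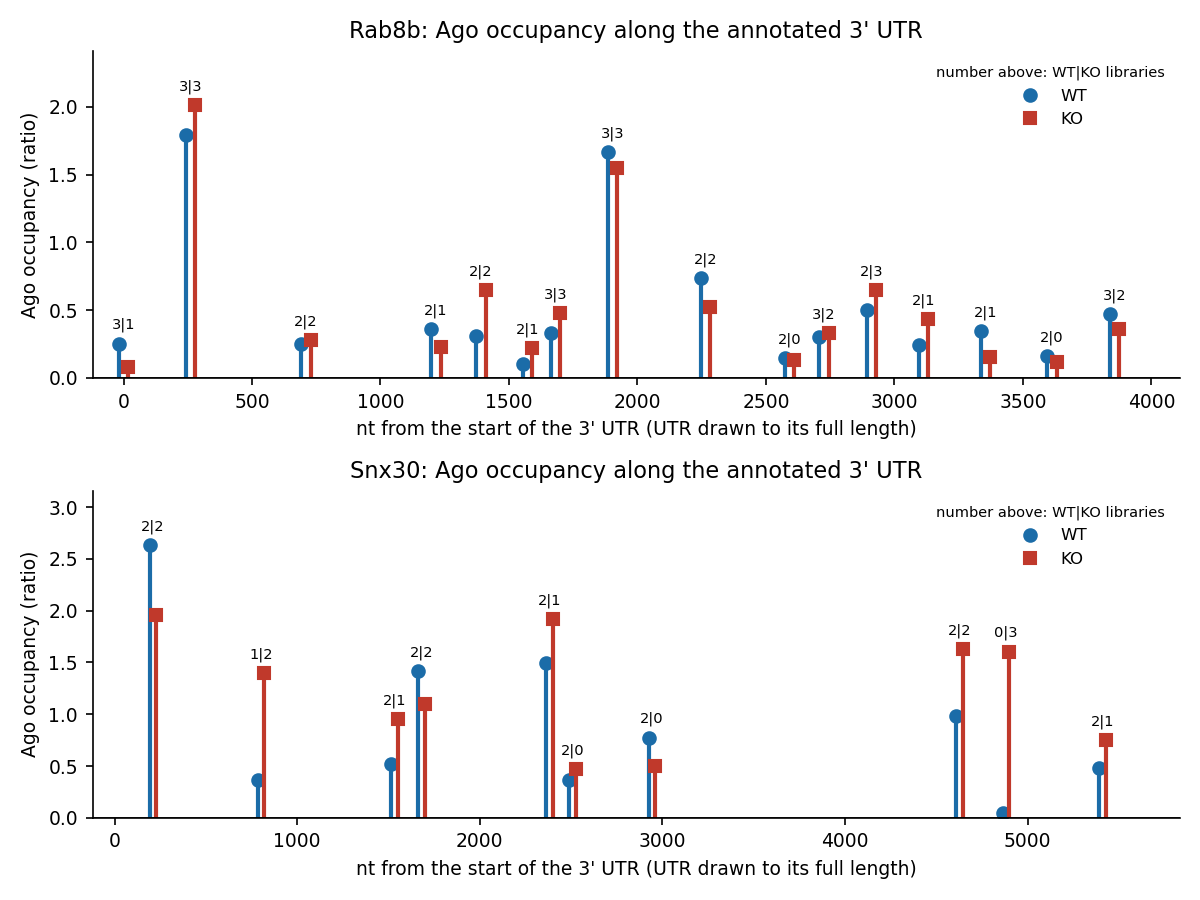
Ago occupancy (vertical axis, ratio) of each footprint of Rab8b (top, 16) and Snx30 (bottom, 10) by its distance from the start of the annotated 3′ UTR (horizontal axis, nt), for WT (blue circles) and KO (red squares), drawn slightly apart for view. The pair of numbers above each footprint gives the WT and KO libraries that held it. The Rab8b peaks at 262 and 1903 nt stand in both genotypes, and the Snx30 footprint at 4881 nt is high in KO alone.

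The Rab GTPases as a whole had 20 genes with 56 footprints, 9 genes higher and 11 lower in KO by sum. Rab footprints had a median log2 ratio of -0.11, with 10 of the 56 at least 2-fold higher (beside 18.9% of all footprints) and 15 at least 2-fold lower (beside 24.2%). Rab11a, of the recycling endosome, had 1.58 in KO and 1.50 in WT over 3 footprints, each held by 2 libraries of both genotypes. Its strongest footprint (1.00 and 1.06) holds matches to miR-30a-5p and miR-146a-5p. Rab22a, of early endosomes, had 1.18 in KO and 1.36 in WT in a single footprint held by 2 libraries of both genotypes. The Golgi Rab6 had 1.15 and 1.41 over 2 footprints that differed in direction (log2 ratios -1.14 and 0.66).

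Rab35, Rab40c and Rab5c were higher in KO. Rab35, which acts in recycling and in cytokinesis, had 0.861 in KO and 0.324 in WT (log2 ratio 1.40). The sum was set by the footprint at chr5:116096948-116097016, with 0.619 in KO (2 libraries) and 0.0641 in WT (1 library), and a log2 ratio of 3.24. Its other footprint had 0.242 and 0.260. Rab40c, whose SOCS box links it to ubiquitin ligases, had 0.855 in KO (2 libraries) and 0.209 in WT (1 library), and its log2 ratio was 2.02. That footprint holds a match to miR-142a-3p 1 nt from its middle and a match to miR-15a-5p. Rab5c, of early endosomes, had 0.607 and 0.355 (0.77) over 4 footprints, 3 of them higher in KO.

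Lower values in KO were those of Rab12, Rab11b, Rab9 and Rab32. Rab12, which acts in the turnover of receptors in lysosomes, had a sum of 0.124 in KO and 1.08 in WT. The stronger of its 2 footprints (0.756 in WT) was listed at 0 in KO and holds the miR-142a-3p site printed above, and the weaker had 0.124 and 0.325. Rab11b had 0.0716 in KO and 0.250 in WT, and Rab9, of transport from late endosomes to the Golgi, had 0.154 and 0.491. No KO library held the footprint of either gene, and the KO value of Rab9 is shared exactly with another footprint. Rab32, of lysosome-related organelles, had 0.422 and 0.861 (log2 ratio -1.03, and -0.99 when centred on the median of all footprints, which ends the call).

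Rab10 and Rab14 each held footprints that differed in opposite directions. Rab10, which acts in the delivery of receptors to the cell surface, had 5 footprints and a sum of 2.27 in KO and 3.42 in WT. The last, 2046 nt in (chr12:3247699-3247787), had 2.10 in WT, where all 3 libraries held it, and 0.196 in KO, where none did (log2 ratio -3.42). It holds the miR-17-5p site printed above, 5 nt from its middle. Its KO value equals that of the Rab5a footprint exactly, which no KO library held either. The other 4 Rab10 footprints had 0.148 to 0.923 in KO and 0.249 to 0.408 in WT, and 3 of them were higher in KO. Over the Rab10 footprints whose KO value no other footprint shares, the log2 ratio was 0.97, so its direction turns. Rab14, of early endosomes and the Golgi, had 6 footprints from 1506 nt into its 3′ UTR of 3525 nt onward, with sums of 1.83 and 2.58, 2 at least 2-fold higher and 2 at least 2-fold lower in KO.

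The remaining Rab genes had 1 or 2 footprints each. Rab5a had 0.196 in KO and 0.391 in WT, and Rab21, which travels with integrins, had 0.371 and 0.723. Rab31 had 0.179 and 0.280, and Rab43 had 0.829 and 0.640 in a footprint that no KO library held. Rab2a, of traffic between the endoplasmic reticulum and the Golgi, had 0.338 and 0.264 from 1 footprint higher and 1 lower, the lower with the miR-142a-3p site printed above (0.0968 in KO and 0.203 in WT). Rab18 had 0.221 and 0.183. The Rab4b footprint (0.195 and 0.145) also overlaps Mia1 on the same strand, so the gene it belongs to is uncertain.

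The strongest footprint of the set lay on a regulator of Rabs. Rab3gap1, the catalytic subunit of a complex that acts on Rab3 and Rab18, had 3.52 in KO (3 libraries) and 5.51 in WT (2 libraries) at chr1:129839259-129839336, rank 72 of 6270 by mean occupancy. Its second footprint had 0.691 and 1.09, with a match to miR-221-3p. The log2 ratio was -0.65 in both. Rab3gap2, the partner subunit, had 0.594 in KO and 0.386 in WT in 1 footprint that no KO library held. Rab3il1, an exchange factor for Rab3 and Rab8 proteins, had the highest summed log2 ratio of the 50 genes, 2.09, with 2.29 in KO and 0.537 in WT. Both of its footprints were at least 2-fold higher in KO and were held by at least 2 libraries of both genotypes. The stronger, at chr19:10109868-10109931, had 2.19 and 0.489. Rab11fip5, an effector of Rab11, had 0.0159 and 0.0537, the weakest gene of the set.

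**Figure D3:**
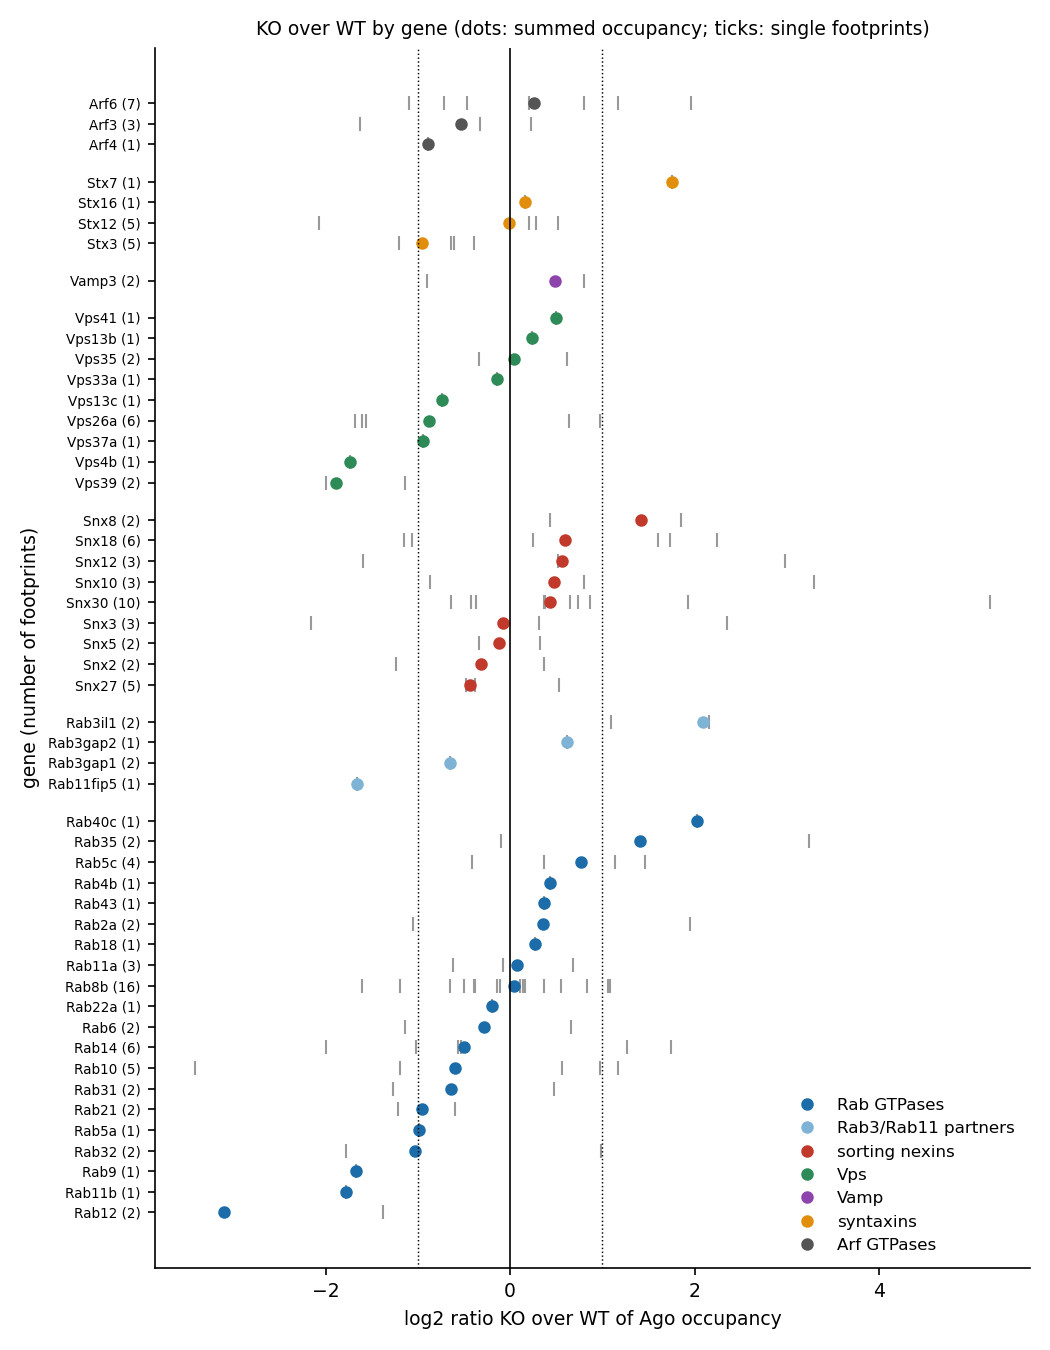
Log2 ratio of KO over WT for each of the 50 genes (dots, summed occupancy, coloured by family; the number of footprints is in brackets) and for each footprint above 0 in KO (grey ticks). Dotted lines mark 2-fold. Dots lie from -3.10 (Rab12) to 2.09 (Rab3il1), and the ticks of Snx30, Snx3 and Rab10 spread over more than the distance between the dotted lines.

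The sorting nexins had 9 genes with 36 footprints, 5 genes higher and 4 lower in KO. The median log2 ratio of their footprints was 0.36 (-0.38 to 0.73), with 22 higher and 14 lower. Of the 36, 9 were at least 2-fold higher (beside 18.9% of all footprints) and 7 at least 2-fold lower (beside 24.2%). The interval includes 0, and whether the family differs from the others was not tested. Snx30, a sorting nexin of endosomes with a BAR domain, which shapes membranes, had the highest summed occupancy of the 50 genes, 12.3 in KO and 9.07 in WT (log2 ratio 0.44). Its 10 footprints were spread over 5773 nt of 3′ UTR (chromosome 4, plus strand), 7 of them higher in KO and 2 held by no KO library. The 3 held by at least 2 libraries of both genotypes gave a log2 ratio of -0.10, and the strongest footprint gave -0.43, so the direction turns. Without KO values that another footprint shares exactly, the log2 ratio of Snx30 was 0.56.

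Single Snx30 footprints differed from each other in both level and direction. The first, 210 nt in (chr4:59912006-59912088), was the strongest, with 1.96 in KO and 2.63 in WT. At 1681 nt, where the let-7a-5p site printed above lies 3 nt from the middle, occupancy was 1.10 and 1.42. At 2383 nt it was 1.92 and 1.49, and at 4627 nt 1.63 and 0.980. The footprint at 802 nt had 1.40 in KO (2 libraries) and 0.368 in WT (1 library). The footprint at 4881 nt, 1.61 in KO (3 libraries) against 0.0421 in WT (0 libraries), had the highest ratio of the whole table. This footprint entered the table through KO libraries alone, so its direction is tied to that entry. It had a G+C content of 60.6%, the highest of all 139. The remaining 4 had 0.472 to 0.955 in KO and 0.362 to 0.775 in WT. The log2 ratio of the footprint at 4881 nt was 5.20, and 1.32 with a pseudocount of 1.

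Snx18, which remodels membranes in endocytosis and autophagy, had 6 footprints and sums of 6.92 in KO and 4.57 in WT (log2 ratio 0.60). Its strongest footprint (chr13:114384353-114384430) had 2.20 in KO and 0.722 in WT, each from 2 libraries, with the miR-30a-5p site printed above 3 nt from the middle. The neighbouring footprint with the miR-19b-3p site had 1.14 (2 libraries) and 0.239 (1 library). Another footprint at least 2-fold higher in KO had 1.66 and 0.498 from 1 KO and 2 WT libraries. On the same 3′ UTR, 2 footprints were at least 2-fold lower, 0.794 against 1.66 (with matches to miR-27a-3p and miR-128-3p) and 0.365 against 0.809 (with matches to miR-142a-3p and miR-221-3p).

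Snx8 and Snx12 also had footprints well above WT in KO. Snx8 had 1.46 in KO and 0.543 in WT (log2 ratio 1.42), and its stronger footprint (1.15 and 0.317, each from 2 libraries) holds the miR-17-5p site printed above and a match to miR-30a-5p. Without KO values that another footprint shares exactly, this footprint drops out and the log2 ratio of Snx8 was 0.44, that of Snx18 1.24 and that of Snx12 1.46. Snx12 had 2.32 and 1.57 over 3 footprints. That 35 nt past the stop codon had 1.20 in KO (3 libraries) and 0.150 in WT (1 library), log2 ratio 2.98. At the end of the same UTR, the footprint with the miR-27a-3p site had 0.271 in KO (0 libraries) and 0.824 in WT (2 libraries).

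Snx10, which acts in the acidification of endosomes and in osteoclasts, had sums of 1.77 and 1.27. The 3 footprints, in order from the stop codon, had log2 ratios of 3.29, 0.80 and -0.87 and G+C contents of 46.4%, 43.1% and 26.5%. The first had 0.406 in KO and 0.0399 in WT, where no library held it. Snx3, of retromer-dependent sorting, had low values, 0.170 and 0.179, from 3 footprints with log2 ratios of 0.31, 2.35 and -2.16. Retromer-linked Snx2 had 1.11 and 1.38, and Snx5 had 1.02 and 1.11. Snx27, which returns receptors from endosomes to the surface, had 2.45 and 3.31 over 5 footprints, of which 2 (0.493 and 0.297 in WT) were listed at 0 in KO.

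The Vps genes had 16 footprints on 9 genes, 5 footprints higher and 11 lower in KO. Of the 16, none was at least 2-fold higher (beside 18.9% of all footprints) and 7 were at least 2-fold lower (beside 24.2%). The median log2 ratio was -0.84 (-1.68 to 0.49). Among the 4 held by at least 2 libraries of both genotypes it was 0.63, so the direction of the family turned with this filter, which leaves out footprints held by few KO libraries.

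Within HOPS, the tether of late endosomes and lysosomes, the subunits had unlike values. Vps33a, the SNARE-binding subunit, had 2.45 in KO and 2.71 in WT at chr5:123980070-123980133, in all 6 libraries, rank 183 of 6270. Vps39 had 0.650 and 2.41 over 2 footprints of its coding sequence (log2 ratios -2.00 and -1.14), which at most 1 KO library held. Both KO values of Vps39 are shared exactly with other footprints, so without shared values it had no ratio. Vps41 had 0.207 and 0.147. In retromer, Vps26a had 0.846 and 1.56 over 6 footprints, and Vps35 had 0.751 and 0.729 over 2. Within Vps26a, both that were higher in KO (0.284 against 0.144 and 0.225 against 0.144) were held by 2 libraries of both genotypes, and the 4 lower ones, 1 of them listed at 0, by at most 1 KO library. Of ESCRT, Vps37a had 0.602 and 1.16, and Vps4b, the ATPase that disassembles it, had 0.0855 and 0.288. The lipid-transfer proteins Vps13b and Vps13c had 0.403 and 0.342, and 0.622 and 1.04. No KO library held the single footprint of Vps4b or that of Vps13b, and both KO values are shared exactly with other footprints.

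Of the SNAREs, Stx12, a syntaxin of recycling endosomes, was the strongest, with 4.32 in KO and 4.36 in WT over 5 footprints. Its main footprint (chr4:132410011-132410076) had 2.65 in KO and 1.85 in WT and was held by all 6 libraries. This footprint holds the miR-19b-3p site printed above and a match to miR-23a-3p, and its KO value is shared exactly with another footprint. A neighbour had 0.247 in KO (0 libraries) and 1.04 in WT, and another (0.268 in WT) was listed at 0 in KO. Stx3, a plasma membrane syntaxin of secretion, had 1.20 and 2.33, and all 5 of its footprints were lower in KO. Only 1 of the 5 was held by any KO library. Stx7, of late endosomes, had 0.418 in KO (2 libraries) and 0.123 in WT (1 library), and the Golgi syntaxin Stx16 had 0.594 and 0.530. Vamp3, a SNARE of recycling endosomes used in phagocytosis and cytokine release, had 1.02 and 0.725, mostly from a footprint held by all 6 libraries (0.912 and 0.522).

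The Arf genes had 11 footprints on 3 genes. Arf6, which controls membrane and actin at the cell surface, had 5.31 in KO and 4.43 in WT over 7 footprints that covered 28.5% of its 3′ UTR (chromosome 12). Its longest footprint, 292 nt, had 1.38 and 0.791 in all 6 libraries, with a match to miR-23a-3p. The footprint near the end of the UTR had 1.20 and 1.04, with a match to miR-27a-3p 3 nt from the middle. In between, footprints had 0.855 and 1.40, 0.219 and 0.470, and 0.950 and 0.243. No KO library held that with 0.219 in KO, and 1 held that with 0.950. The Golgi Arf3 had 0.460 and 0.668 over 3 footprints, of which that nearest the UTR end (0.113 and 0.353) was held by 3 WT and 0 KO libraries. Arf4 had 0.0713 and 0.134.

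The number of libraries moved with the ratio. At least 2 libraries held 61 of the 139 footprints in KO (43.9%, beside 40.1% of all) and 129 in WT (92.8%, beside 94.9%). The 37 held by no KO library (26.6%, beside 27.9%) had a median log2 ratio of -1.14, and the 102 held by at least 1 had 0.34. Occupancy and library counts come from the same libraries, so this split is tied to the ratio beforehand. No medians of all footprints under the split stand beside these 2. Of those 37, 6 were listed at 0 in KO (4.32%, beside 4.63%), in Rab12, Snx27, Stx12, Stx3 and Vps26a, and 31 had a value above 0. No WT library held 2 footprints (1.44%, beside 0.463%), those of Snx30 and Snx10 described above. All 6 libraries held 8 (5.76%, beside 5.89%). Among the 51 held by at least 2 libraries of both genotypes (36.7%, beside 35.0%), 37 were higher in KO (72.5%, beside 68.5% of all such footprints), 9 at least 2-fold (17.6%, beside 26.2%) and 0 at least 2-fold lower (beside 5.01%). Because every footprint needed 2 libraries of 1 genotype to enter the table and most entered through WT, these counts carry that choice. In KO, 46 of the 133 values above 0 (34.6%, beside 33.3% in the table) were shared exactly with another footprint, 22 of them in footprints that no KO library held. Without the shared KO values, 22 footprints were at least 2-fold higher and 19 at least 2-fold lower. No share of all footprints under this filter stands beside these 2 counts, so they are no result about the set.

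Base composition, whose part in the results was not tested, moved with the ratio in the same way as in the whole table. The 50 footprints with the least G+C (at or below 38.6%) had a median log2 ratio of -0.62, and the 37 with the most (above 47.3%) had 0.44. The same bounds gave -0.53 and 0.42 over all footprints. The mean number of KO libraries went from 0.92 to 1.68 between these groups of the set, and that of WT libraries from 2.10 to 2.03. Spearman's rho between the G+C share and the log2 ratio was 0.34 across the 139 footprints, which share libraries and often genes, and 0.32 across the table. It was -0.02 across the 51 held by at least 2 libraries of both genotypes and -0.19 across the 16 of Rab8b. Within genes that had at least 2 footprints, that with the highest ratio had more G+C than that with the lowest in 21 of 31 (67.7%, beside 64.3% of 1197 genes). In 8 of the 31 (25.8%, beside 31.4%) footprints of the same gene were at least 2-fold higher and at least 2-fold lower.

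**Figure D4:**
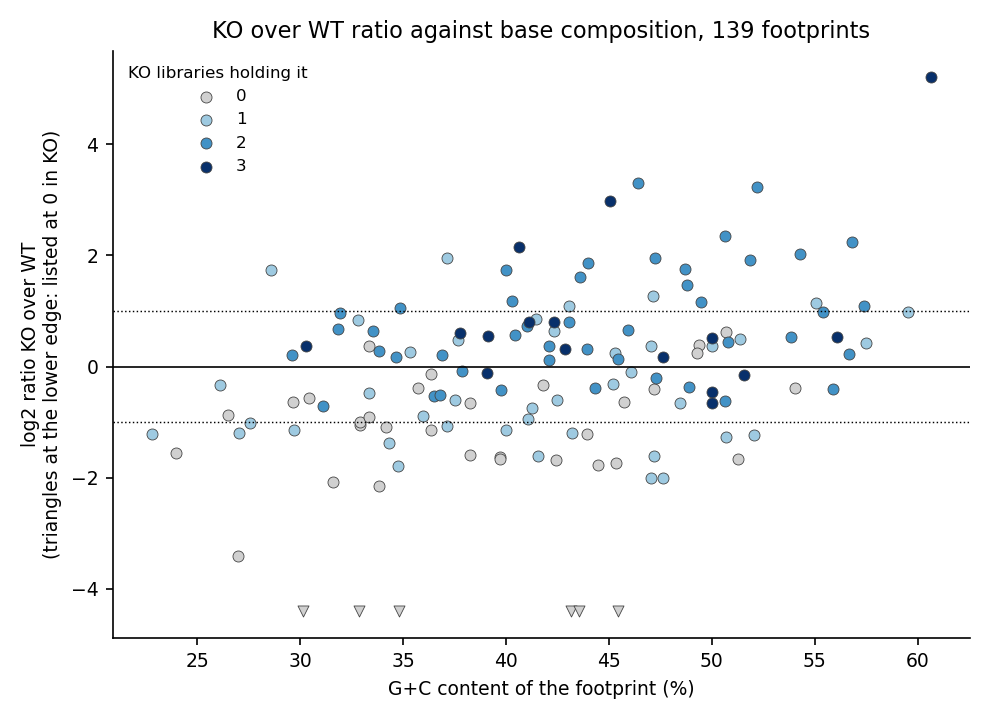
Log2 ratio of KO over WT (vertical axis) against the G+C content of the footprint (horizontal axis, percent) for the 139 footprints, shaded by the number of KO libraries that held each. Triangles at the lower edge are the 6 listed at 0 in KO. The pale points of 0 KO libraries lie mostly below the line at 0, and the Snx30 footprint with 60.6% G+C is the highest point.

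Position along the 3′ UTR was described next. Of the 137 footprints in a 3′ UTR, 14 (10.2%, beside 9.98% of all) had their middle within 100 nt of its start and 10 (7.30%, beside 6.07%) within 100 nt of its end. The median log2 ratio was -0.44 at the start, -0.34 at the end and 0.11 elsewhere, beside -0.10, -0.19 and -0.02 over all footprints. Footprints with a seed match had a median log2 ratio of 0.20 (31) and those without had -0.26 (108), beside -0.04 and -0.04 over all footprints. The intervals over footprints were -0.65 to 0.56 with a match and -0.47 to 0.27 without. They overlap and include 0, and whether the groups differ was not tested.

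Other genes of membrane traffic were taken from lists drawn up by function. Their counts stand beside 47.8% of all genes higher in KO, 11.7% at least 2-fold higher and 17.9% at least 2-fold lower. Of SNARE partners and fusion factors, 8 of 43 were measured, 6 higher and 2 lower in KO by sum, 3 of them at least 2-fold higher (beside 11.7% of all genes). Nsf, the ATPase that takes SNARE complexes apart, had 0.348 in KO and 0.109 in WT, and Snap23, which pairs with syntaxins at the plasma membrane, had 0.341 and 0.626. Of regulators and effectors of Rabs 15 of 69 were measured, 6 higher and 9 lower, from Dennd4b, an exchange factor (1.66 and 0.714), to Rabggtb, a subunit of the enzyme that attaches lipid to Rabs (0.199 and 1.09). Regulators of Arfs had 8 higher and 7 lower of 15, with Adap2 (0.789 and 0.350) at the upper and Agfg1 (1.19 and 3.98) at the lower end. Coats and adaptors had 4 higher and 12 lower of 16, with none at least 2-fold higher (beside 11.7% of all genes) and 4 at least 2-fold lower (beside 17.9%). Ap3m1, of the adaptor that sends cargo to lysosomes, had 0.289 in KO (0 libraries) and 2.42 in WT (3 libraries), and Clta, a clathrin light chain, had 0.0553 and 0.0371. ESCRT and endosome genes had 5 higher and 6 lower of 11, with 0 at least 2-fold higher (beside 11.7% of all genes) and 2 at least 2-fold lower (beside 17.9%). Mtmr2 (1.46 and 0.788) stood at the upper end, and Lamp1 (0.0183 and 0.0465) was among those 2 lower genes. Medians over the footprints of the 5 lists lay between -0.33 and 0.15, and each interval over footprints included 0.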

How the data were processed

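Per the labels' protocols, the authors sequenced Ago-bound RNA of 3 WT and 3 KO libraries, aligned it to mm9, took footprints at cluster peaks and normalized them to RNA-Seq expression. The deposited occupancy is this ratio, with 1 value per genotype. The authors also deposited the number of libraries per genotype that held each footprint. The submitters' processing notes name Bowtie 0.12.8 and bedtools.

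From these values, footprints were assigned by strand to genes of GENCODE vM1 (mm9), and log2 ratios of KO over WT were computed with a pseudocount of 0.00161, 50% of the smallest value above 0. Gene values are sums of footprints. A difference was counted from 2-fold. With 1 value per genotype no test was made, and intervals of medians run over footprints, not samples. Values are given in full for Rab8b and Snx30, the 10 genes with the highest mean occupancy, the 8 highest and 8 lowest gene ratios, genes with at least 3 footprints or with 1 that at least 2 WT and at least 2 KO libraries held, and the other genes briefly. Of the function lists, genes named are among the 2 highest and 2 lowest. The members and lists were chosen with earlier results of these data known. The alternatives were other pseudocounts, filters, centring, the strongest footprint per gene and other seed lengths. Python used pandas 2.3.3, numpy 2.4.6, scipy 1.17.1, pysam 0.24.0 and matplotlib 3.10.9.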

Additional observations from a re-analysis of the deposited data

How the results depend on the processing

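No paired analysis was possible because the table gives 1 combined value per genotype, and for the same reason no replicate could be left out. Depth is unknown, so the error of low values cannot be given. No called value changed sign under the alternatives run, but these could hardly show such a change. A pseudocount cannot turn a direction. Among the genes past 2-fold, only Rab3il1 and Snx8 kept footprints under the filter of at least 2 libraries of both genotypes. For the others that filter gave no value. For the 139 footprints the median (log2 -0.11) became 0.37 over those held by at least 2 libraries of both genotypes. It was 0.34 over those held by at least 1 KO library and 0.28 without shared KO values, both chosen after seeing the data. The gene median (-0.10) was 0.39 with at least 2 libraries of both genotypes, that of the Vps footprints (-0.84) was 0.63 and that of the Rab regulators (-0.23) was 0.50.

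Footprints at least 2-fold higher in KO (24) numbered 2 with a pseudocount of 1, 12 among those no weaker on average than the median of the table (0.425) and 9 with at least 2 libraries of both genotypes. Those at least 2-fold lower (36) numbered 21 with a pseudocount of 0.1, 2 with a pseudocount of 1, 11 after that filter on strength, 0 with at least 2 libraries of both genotypes, 19 without shared KO values and 15 with at least 1 KO library. Genes at least 2-fold higher (5) numbered 1, 3 and 3 under the pseudocount of 1, the filter on strength and the filter on libraries, and 8 by the strongest footprint. Genes at least 2-fold lower (7) numbered 1, 3, 0 and 15 under the same settings. The smaller tables left by these filters hold fewer footprints. The other causes were not tested. Of the 50 genes, 10 changed their side of 2-fold with a pseudocount of 1 and 11 by the strongest footprint. Shares of all footprints were given above for footprints held by at least 2 libraries of both genotypes. None stands beside the other counts of this paragraph, so these are no result about the set.

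Counted as found in at least 1 library, 102 footprints were found in KO, and in all 3 libraries 16 (61 in at least 2). In WT 22 were found in all 3 (129 in at least 2). Seed matches were held by 61.9% of the footprints at 6 nt (beside 50.2% of all footprints). With a following A the share was 10.8% (beside 8.12%), and at 7 nt it was 22.3% (beside 20.3%).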
